A study of Mus musculus with 20 samples.

Results

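Interferon-stimulated genes were followed in the brain of aged mice long after a stroke. The 43 genes, of 46078 listed in each count table, were taken by symbol from a fixed list of genes that interferons are known to induce, a rule that uses no measured value, although the list was drawn up with earlier results of these data known. RNA sequencing was performed on tissue of wild-type C57BL/6J mice aged 18 months, 7 weeks after DH stroke, which joins occlusion of the distal middle cerebral artery to a period of hypoxia. All mice had this stroke, and from week 1 they were injected subcutaneously 3 times per week for 6 weeks with PBS (vehicle) or with 2-hydroxypropyl-β-cyclodextrin, or HPBCD, a ring of sugars that takes up cholesterol, at 4 g/kg. Tissue beside the infarct (peri-infarct) and the matching contralateral tissue gave 5 libraries each per treatment, 20 libraries in all, and the labels name no unoperated mice.

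In mice given vehicle, 22 of the 40 members that could be tested were higher in peri-infarct than in contralateral tissue, against 10.5% of all genes tested, and 0 were lower, against 9.7%, with a median log2 fold change of 0.85. In mice given HPBCD, 37 of 41 were higher, against 30.3% of genes, with a median of 1.52. The guanylate-binding protein gene Gbp2, the transcription factor gene Irf8 and the antiviral genes Oasl2 and Bst2 rose over 3-fold in both treatments. Between treatments, 8 of 42 members were higher in peri-infarct libraries labelled HPBCD than in those labelled vehicle and 0 were lower, against 12.4% and 9% of genes and 21.4% in either direction, so their share of calls was near that of all genes. The count ran from 1 to 26 on leaving out 1 library. The called members included Gbp2 and the Ifitm genes. In contralateral tissue 0 of 35 members and 0% of genes were called. Of 9 interferon genes, 0 had counts high enough to be tested.

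Interferons are secreted proteins that bind cell surface receptors and, through Janus kinases, switch on STAT and IRF transcription factors. Type I interferons act on genes that carry the interferon-stimulated response element (ISRE), a sequence bound by a complex that includes IRF9, and interferon-γ acts on genes that carry the gamma-activated sequence (GAS). The genes so induced block viral entry, translation and replication, sense nucleic acids and raise antigen presentation. In the brain, microglia and other myeloid cells respond strongly, and an interferon-responsive microglial state is known from injured and aged tissue.

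Gene counts per library were 14445021 to 22171627 (median 19008532), at which a count of 3, taken as the floor, corresponds to 0.126 to 0.228 CPM (the share of counts scaled to a common library size with TMM factors). HPBCD contralateral replicate 4 stood apart. Its share of read pairs without a feature was 9.5% (4.39% to 5.86% in the other 19 libraries), and 13 genes were over 5 times the highest other library, among them Trim30a and an annotated ribosomal RNA. No gene was targeted in this design, so the counts hold no direct check of the vehicle and HPBCD labels. The study that reported these data gives Ccr2 as lower, and Syn1 and Nefl as higher, in peri-infarct tissue after HPBCD. As labelled here, 5 of 7 markers of macrophages and monocytes were called higher in HPBCD and 0 lower. Of 7 neuron markers 4 were called lower and 0 higher. The treatment labels of the peri-infarct libraries, or the direction of either comparison, are in doubt for that reason. The direction of the differences between treatments is therefore uncertain. Every difference between treatments is given as labelled, and an exchange of the treatment labels of the peri-infarct libraries would turn its direction there and change the region comparisons and the interaction.

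Promoter windows from RefSeq (GRCm38.p6, 250 bases before to 50 bases after a start, 300 in all) were found for 32 of the 43 members. The ISRE core GAAANNGAAA was searched on both strands, as was GAS, written TTCNNNGAA. The ISRE core was present in a window of 19 of the 32 members, against 3.44% of the 32851 windows and 3.99% of the 27025 genes of the table, and GAS was present for 10, against 8.3% of the windows and 9.55% of the genes. The members were listed as genes that interferons induce, and interferons act through these elements. A higher share than that of all genes is thus built into the list. Matches of the motifs may overlap each other, and a match is a run of letters, not a bound site. The 200 bases before the RefSeq start follow for 5 members, 5′ to 3′ on the strand of the gene, with ISRE matches on either strand in capitals. Bases that GENCODE M21 annotates as untranslated were left out, so that Ifit1 is shown over 127 bases and Ifitm2 over 174. GENCODE starts may differ from RefSeq starts, as for Gbp2, whose gene span begins at 142620602 and whose match lies within its first exon there. Ifit1 and its neighbours Ifit3 and Ifit3b were chosen as a family on chromosome 19 with paired matches, Isg15 for 3 overlapping matches in a row, and Ifitm2 as a member called in the interaction, the test of whether the region difference differed between treatments.
Ifit1, chr19:34640744-34640870, plus strand: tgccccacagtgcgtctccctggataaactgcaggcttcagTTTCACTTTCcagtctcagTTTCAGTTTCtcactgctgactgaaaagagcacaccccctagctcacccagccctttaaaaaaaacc
Ifit3, chr19:34583329-34583528, plus strand: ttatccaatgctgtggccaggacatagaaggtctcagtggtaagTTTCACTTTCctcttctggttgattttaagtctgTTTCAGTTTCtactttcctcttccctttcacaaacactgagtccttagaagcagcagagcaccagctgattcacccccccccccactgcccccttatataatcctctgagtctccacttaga
Ifit3b, chr19:34607757-34607956, plus strand: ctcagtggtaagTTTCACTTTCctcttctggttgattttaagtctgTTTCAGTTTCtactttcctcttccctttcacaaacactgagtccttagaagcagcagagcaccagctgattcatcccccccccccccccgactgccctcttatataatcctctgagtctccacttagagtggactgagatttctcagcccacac
Isg15, chr4:156200819-156201018, minus strand: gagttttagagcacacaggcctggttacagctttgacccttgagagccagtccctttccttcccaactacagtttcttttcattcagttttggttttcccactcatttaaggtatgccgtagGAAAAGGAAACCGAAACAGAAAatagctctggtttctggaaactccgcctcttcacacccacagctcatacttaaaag
Ifitm2, chr7:140955988-140956161, minus strand: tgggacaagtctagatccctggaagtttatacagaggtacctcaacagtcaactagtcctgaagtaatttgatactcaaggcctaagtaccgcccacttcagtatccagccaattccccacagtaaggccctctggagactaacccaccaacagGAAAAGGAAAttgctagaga
The paired matches began 104 and 85 bases before the start in Ifit1, 156 and 122 in Ifit3 and 188 and 154 in Ifit3b. Those of Isg15 began at 78, 72 and 66 bases, that of Gbp2 at 59 and that of Ifitm2 at 46, while no match was found in the window of Ifitm1. In Ifitm3 the matches GAAAAGGAAA and GAAACCGAAA lay just after the start, at transcript bases 3 and 20.

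The first comparison set peri-infarct against contralateral tissue within each treatment, to show which members differ beside a chronic infarct. In vehicle-treated mice 40 members passed the low-count filter and 22 were called higher at an edgeR adjusted p under 0.05, whereas 10.5% of the 15801 genes tested were called higher and 20.2% in either direction. All 5 peri-infarct libraries lay above all 5 contralateral libraries for 15 members, against 6.72% of genes. The median log2 fold change of the tested members was 0.85 and that of all genes 0.01. In HPBCD-treated mice 41 members were tested and 37 were called higher, where 30.3% of 16047 genes were and 54.6% were called in either direction. Trim30a was called lower, as were 24.3% of genes, and is treated below with the library that decides it. No overlap with contralateral libraries was seen for 35 members, against 24.3% of genes, and the medians were 1.52 for members and 0.03 for all genes. A gene near 0 in contralateral tissue passes the filter only through its peri-infarct libraries, so these counts describe the tested members. The members called higher in both treatments were 21, against 9.42% of the genes tested in HPBCD-treated mice, and 16 were called higher in HPBCD only, against 20.9%. A call in one treatment and not in the other is no test of their difference, which was tested as an interaction, given below. In bulk tissue, more cells of a type and more RNA per cell cannot be told apart.

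**Figure D1:**
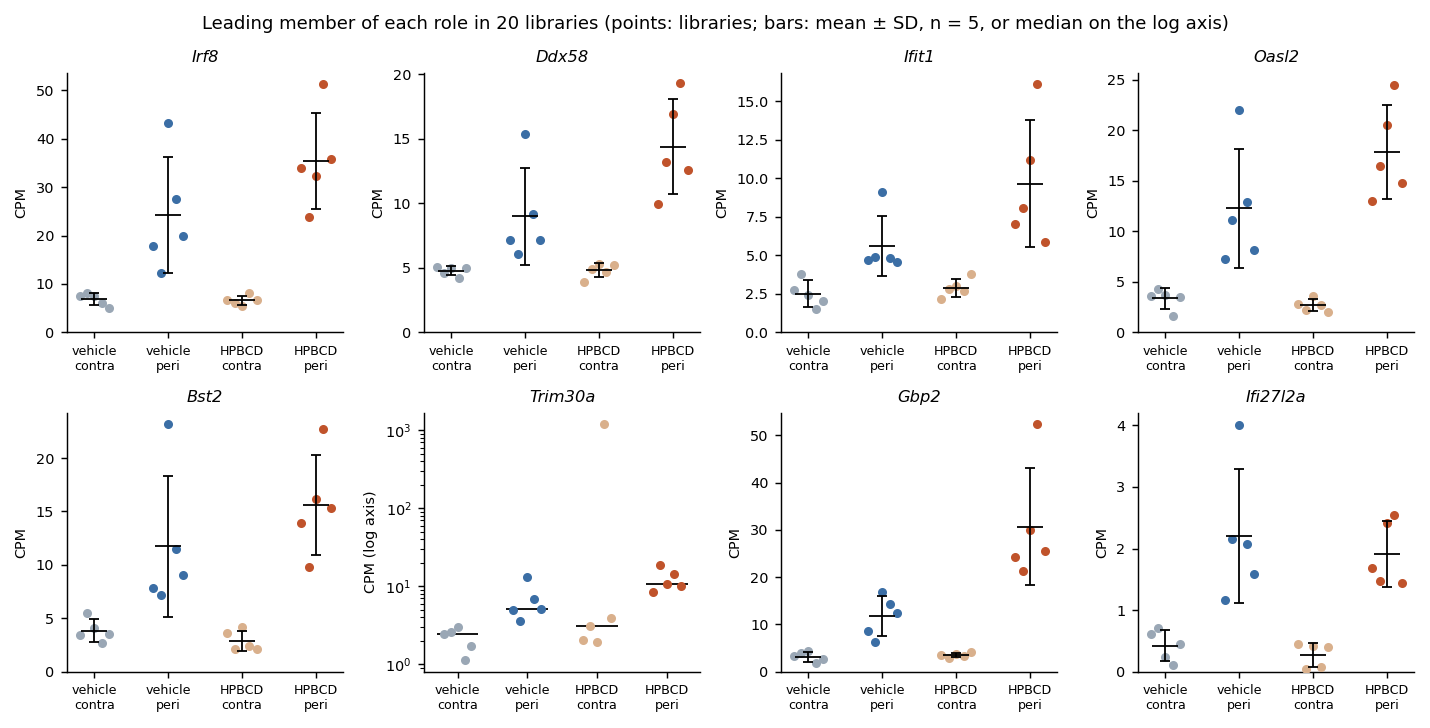
CPM in each of the 20 libraries for the member of each role with the smallest p in the vehicle region comparison; points are libraries, bars are the mean and SD of 5 libraries, and Trim30a is on a log axis with group medians. Peri-infarct libraries lie above the contralateral ones of their treatment, and Trim30a, the exception in HPBCD, has 1 HPBCD contralateral library at 1194 CPM.

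Among the transcription factors, Irf8, Irf7 and Irf9 rose in both treatments, Irf1 rose in HPBCD-treated mice, and Stat2 was not called in any comparison. Irf8 (ENSMUSG00000041515, chromosome 8, 120736358 to 120756694, plus strand, GRCm38) encodes a factor needed for microglia and other myeloid cells. It was at 7.53, 8.12, 7.58, 6.09 and 4.97 CPM in the vehicle contralateral and 17.9, 12.3, 43.3, 27.5 and 19.96 CPM in the vehicle peri-infarct libraries. It was at 6.69, 6.15, 5.38, 8.06 and 6.77 CPM in the HPBCD contralateral and 33.9, 23.9, 32.2, 51.2 and 35.8 CPM in the HPBCD peri-infarct libraries. Every peri-infarct library exceeded every contralateral library of its treatment, with vehicle replicate 3 and HPBCD replicate 4 the highest. The difference was 1.81 on the log2 scale in vehicle (SE 0.30, adjusted p = 0.00322 in edgeR) and 2.42 in HPBCD (SE 0.18, adjusted p = 8.15e-07 in edgeR). Irf7, which amplifies the production of type I interferon, had log2 fold changes of 1.18 and 1.50 (adjusted p = 0.0233 and 0.00018 in edgeR). Irf9, the DNA-binding subunit of the type I complex, had 0.81 and 1.25 (adjusted p = 0.0301 and 1.41e-05 in edgeR). Stat2, its partner, stood at 23.2 ± 1.82 CPM in vehicle contralateral and 25.2 ± 4.71 CPM in vehicle peri-infarct libraries (mean ± SD, n = 5), with a log2 difference of 0.10 (SE 0.12), and in HPBCD-treated mice the difference was 0.20 (SE 0.10, adjusted p = 0.0985 in edgeR). Exons of Irf9 overlap Rnf31 over 123 bp on the same strand and those of Irf7 overlap Phrf1 over 45 bp on the other strand, so their counts carry that uncertainty.

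Of the nucleic acid sensors, Ddx58 rose in both treatments, and Ifih1 rose in HPBCD-treated mice. Ddx58 (ENSMUSG00000040296, chromosome 4, 40203773 to 40239828, minus strand, GRCm38) encodes RIG-I, a cytoplasmic sensor of viral RNA. It was at 5.06, 4.63, 4.98, 4.24 and 5.02 CPM in the vehicle contralateral and 7.14, 6.1, 15.4, 9.19 and 7.13 CPM in the vehicle peri-infarct libraries, without overlap. The HPBCD contralateral libraries were at 3.94, 4.94, 5.31, 4.64 and 5.24 CPM and the HPBCD peri-infarct libraries at 9.93, 13.2, 16.9, 19.3 and 12.6 CPM, again without overlap and farther apart. Its log2 fold changes were 0.90 in vehicle (SE 0.23, adjusted p = 0.0209 in edgeR) and 1.58 in HPBCD (SE 0.18, adjusted p = 1.19e-05 in edgeR). Zbp1, a sensor of nucleic acids in the Z form, was at 0.355 CPM or less in contralateral tissue and could not be tested in vehicle-treated mice. It was at 0.0499, 0, 0, 0.152 and 0.113 CPM in HPBCD contralateral and 1.3, 1.37, 3.73, 3.92 and 2.11 CPM in HPBCD peri-infarct libraries. It passed the low-count filter there through its peri-infarct libraries and the contralateral values hold few counts, so no fold or p is given, although it stands among the 37 members called.

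The IFIT genes encode proteins that bind foreign RNA and hold back its translation. Ifit1, Ifit2 and Ifit3 rose in both treatments and Ifit3b in HPBCD-treated mice. Ifit1 (ENSMUSG00000034459, chromosome 19, 34640871 to 34650009, plus strand, GRCm38) was at 2.75, 3.81, 2.43, 1.52 and 2.07 CPM in the vehicle contralateral and 4.69, 4.87, 9.09, 4.85 and 4.6 CPM in the vehicle peri-infarct libraries. In vehicle peri-infarct tissue 4 libraries lay close together and replicate 3 lay far above them. HPBCD contralateral libraries were at 2.2, 2.82, 3.03, 2.66 and 3.78 CPM and HPBCD peri-infarct libraries at 7.07, 8.06, 11.2, 16.1 and 5.84 CPM, with no overlap and with replicate 4 highest. The log2 fold changes were 1.15 (SE 0.27, adjusted p = 0.0145 in edgeR) and 1.73 (SE 0.27, adjusted p = 0.00014 in edgeR). Ifit3 had 0.93 and 1.21, and its close copy Ifit3b 0.54 (not called in vehicle, adjusted p = 0.108 in edgeR) and 0.80. These 2 copies share 51.2% and 45% of their 50-base transcript windows with another gene, so their values are uncertain. Ifit2 had the smallest significant change of the family, of 0.42 and 0.46 on the log2 scale (adjusted p = 0.0226 and 0.00461 in edgeR).

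The OAS genes encode 2′-5′ oligoadenylate synthetases, which activate the RNase L pathway, and their relatives. Oasl2 and Oas1a rose in both treatments and Oas2 in HPBCD-treated mice, while Oas3 and Oasl1 could not be tested between regions. Oasl2 (ENSMUSG00000029561, chromosome 5, 114896936 to 114912234, plus strand, GRCm38) was at 3.63, 4.3, 3.73, 1.63 and 3.49 CPM in the vehicle contralateral and 7.24, 11.1, 21.97, 12.9 and 8.14 CPM in the vehicle peri-infarct libraries. It was at 2.8, 2.22, 3.58, 2.74 and 2.03 CPM in the HPBCD contralateral and 12.996, 16.5, 20.5, 24.5 and 14.8 CPM in the HPBCD peri-infarct libraries. The lowest peri-infarct library was above the highest contralateral library in both treatments. The difference was 1.86 in vehicle (SE 0.33, adjusted p = 0.0042 in edgeR) and 2.74 in HPBCD (SE 0.21, adjusted p = 8.75e-07 in edgeR) on the log2 scale. Oas1a was at 0.272 to 0.981 CPM in vehicle and 0.207 to 0.605 CPM in HPBCD contralateral libraries. It passed the low-count filter through its peri-infarct libraries, so no fold or p is given, although it stands among the members called. Its vehicle call was lost in 7 of 17 alternative settings, among them that with the animal as a block. Of its 50-base transcript windows, 57.6% occur in Oas1g, Oas1b or another gene. Oas3 had at most 24 counts in any library and passed the filter in no comparison, and Oasl1, with at most 26, passed it only for the treatments in peri-infarct tissue and the interaction.

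The direct antiviral effectors were 8 genes. In vehicle-treated mice Bst2 and Ifitm3 rose among the 8 tested, against 10.5% of all genes. In HPBCD-treated mice 7 of 8 rose, against 30.3% of all genes, with Mx1 the exception. Bst2 (ENSMUSG00000046718, chromosome 8, 71534255 to 71537456, minus strand, GRCm38) encodes tetherin, which holds budding virions at the cell surface. It was at 3.41, 5.5, 4.09, 2.72 and 3.54 CPM in the vehicle contralateral and 7.85, 7.18, 23.2, 11.5 and 9.09 CPM in the vehicle peri-infarct libraries. It was at 3.59, 2.12, 4.14, 2.43 and 2.09 CPM in the HPBCD contralateral and 13.9, 9.78, 16.2, 22.7 and 15.3 CPM in the HPBCD peri-infarct libraries. Groups did not overlap within a treatment, and vehicle peri-infarct replicate 3 was above every HPBCD peri-infarct library. The log2 fold changes were 1.60 (SE 0.33, adjusted p = 0.00779 in edgeR) and 2.43 (SE 0.25, adjusted p = 5.33e-06 in edgeR). Rsad2, which encodes viperin, had 0.71 in vehicle (adjusted p = 0.139 in edgeR) and 1.19 in HPBCD (adjusted p = 0.000298 in edgeR). Mx1 and Mx2 belong to a family of dynamin-like GTPases that trap viral nucleocapsids, but are known to be defective in C57BL/6J mice, and Mx2 is annotated as a polymorphic pseudogene. Both stayed at or under 2.65 CPM in every library. Mx2 passed the threshold in HPBCD-treated mice with overlapping groups (0.96, adjusted p = 0.0428 in edgeR), a call lost in 11 of 17 alternative settings with adjusted p up to 0.116, and Mx1 missed it with 1.18 (adjusted p = 0.0674 in edgeR).

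In the ISG15 system and the PARP and TRIM genes, 5 of 6 members rose in vehicle-treated mice and 5 of 6 in HPBCD-treated mice, but not the same 5. The shares of all genes called higher were 10.5% and 30.3%. Isg15 itself, a ubiquitin-like protein, was at 1.81, 1.91, 1.9, 1.09 and 2.16 CPM in the vehicle contralateral and 2.96, 1.59, 6.21, 2.64 and 1.77 CPM in the vehicle peri-infarct libraries, with replicates 2 and 5 inside the contralateral range. Its log2 fold change was 0.76 in vehicle (SE 0.37, adjusted p = 0.166 in edgeR) and 1.36 in HPBCD (SE 0.25, adjusted p = 0.000554 in edgeR). Usp18, the protease that takes ISG15 off proteins and also restrains the type I receptor, had 1.54 and 1.94 (adjusted p = 0.0193 and 5.87e-05 in edgeR). Parp14, an ADP-ribosyltransferase, had 1.38 and 2.31, with the vehicle call lost with the animal as a block (adjusted p = 0.0533 in edgeR), and the partners Parp9 and Dtx3l had 0.95 and 1.70 and 0.60 and 0.91. Parp9 and Dtx3l share 458 bp of exon on opposite strands, and since the strand setting of the counting is not given in the sources used here, reads there cannot be assigned for certain.

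Trim30a (ENSMUSG00000030921, chromosome 7, 104409025 to 104465193, minus strand, GRCm38), a ubiquitin ligase gene that restrains signalling of Toll-like receptors, was the member called in opposite directions. It was at 2.42, 2.62, 3.02, 1.14 and 1.72 CPM in the vehicle contralateral and 4.95, 3.54, 13.3, 6.92 and 5.17 CPM in the vehicle peri-infarct libraries, without overlap (log2 fold change 1.62, SE 0.37, adjusted p = 0.0117 in edgeR). The HPBCD contralateral libraries were at 2.05, 3.08, 1.93, 1194 and 3.89 CPM, and the HPBCD peri-infarct libraries at 8.5, 18.95, 10.6, 14.2 and 10.0003 CPM. Thus 4 contralateral libraries lay under every peri-infarct library and replicate 4, with 15700 counts, lay far over them. With all 10 libraries the log2 fold change was -4.27 (SE 1.66, adjusted p = 0.0444 in edgeR). Without HPBCD contralateral replicate 4 it was 2.18 (adjusted p = 9.83e-05 in edgeR), and it was 0.17 with limma voom and 0.99 with the animal as a block, so the call of a decrease rests on that library. In the fit of all 4 groups, which holds that library too, the vehicle difference of 1.63 was not called (adjusted p = 0.47 in edgeR). The same library had 36640 CPM of the ribosomal RNA gene CT010467.1, against at most 1146 CPM in the other 19, and 78.96 CPM of the small nuclear RNA gene Rn7sk, against at most 4.288 CPM. Their part in the Trim30a value was not tested.

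Of the interferon-inducible GTPases, Gbp2, Gbp3 and Gbp7 rose in both treatments, Iigp1 and Irgm1 rose in HPBCD-treated mice, and Igtp was not called. Gbp2 (ENSMUSG00000028270, chromosome 3, 142620602 to 142638008, plus strand, GRCm38), which encodes a GTPase that coats vacuoles of pathogens, was at 3.24, 3.87, 4.33, 1.74 and 2.66 CPM in the vehicle contralateral and 8.57, 6.36, 16.8, 14.3 and 12.5 CPM in the vehicle peri-infarct libraries. It was at 3.44, 2.82, 3.65, 3.42 and 4.12 CPM in the HPBCD contralateral and 24.2, 21.4, 30.03, 52.3 and 25.6 CPM in the HPBCD peri-infarct libraries. The 3 ranges, contralateral, vehicle peri-infarct and HPBCD peri-infarct, did not touch. The log2 fold change was 1.87 in vehicle (SE 0.29, adjusted p = 0.00268 in edgeR) and 3.13 in HPBCD (SE 0.24, adjusted p = 8.79e-07 in edgeR), and both calls held under every alternative run. Gbp3 had 1.09 and 1.52 and Gbp7 0.82 and 1.10, and the annotated exons of Gbp7 overlap Gm43802 over 637 bp on the same strand. Igtp, which encodes an immunity-related GTPase, was at 6.22 ± 1.13 CPM in vehicle contralateral and 5.51 ± 1.39 CPM in vehicle peri-infarct libraries, and at 8.56 ± 1.29 and 7.76 ± 2.47 CPM in HPBCD contralateral and peri-infarct libraries (SD, n = 5 each). Its log2 differences of -0.19 and -0.15 had edgeR adjusted p-values of 0.534 and 0.542, and its exons overlap those of its relative Irgm2 over 162 bp. Irgm1, a regulator of that GTPase group, had 0.25 in vehicle (adjusted p = 0.383 in edgeR) and 0.75 in HPBCD (adjusted p = 0.000587 in edgeR).

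Of the remaining 6 members, 3 rose in vehicle-treated mice and 6 in HPBCD-treated mice, against 10.5% and 30.3% of all genes. Ifi27l2a (ENSMUSG00000079017, chromosome 12, 103442167 to 103443680, minus strand, GRCm38), known from microglia of aged and injured brain, was at 0.605, 0.708, 0.237, 0.109 and 0.443 CPM in the vehicle contralateral and 1.17, 2.15, 4.01, 2.07 and 1.58 CPM in the vehicle peri-infarct libraries. It was at 0.449, 0.0504, 0.414, 0.0761 and 0.395 CPM in the HPBCD contralateral and 1.68, 1.47, 2.42, 2.54 and 1.44 CPM in the HPBCD peri-infarct libraries. Contralateral libraries were all under 1 CPM and peri-infarct libraries all above it. The contralateral values hold few counts, and the gene passed the low-count filter through its peri-infarct libraries. No fold or p is given for that reason, although it stands among the members called higher in both treatments. Its relative Ifi27 had 0.42 and 0.67 (adjusted p = 0.0242 and 4.77e-05 in edgeR). Ifi44 had 1.17 and 1.69, whereas Ifi35, Rtp4 and Xaf1 had 0.72, 0.83 and 0.22 in vehicle, not called, and 1.29, 0.88 and 0.63 in HPBCD, all called.

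Of the 22 calls in vehicle-treated mice, 11 held in every alternative setting that gave them an adjusted p, among them those of Irf8, Ddx58, Ifit1, Oasl2, Bst2 and Gbp2. Leaving out vehicle peri-infarct replicate 4 ended the calls of Irf9, Ifit2, Oas1a, Parp9, Dtx3l and Ifi44, replicate 3 those of Oas1a and Ifi44, and replicate 5 those of Ifit2, Oas1a and Ifi27. Leaving out vehicle contralateral replicate 3 ended the calls of Irf9, Ifit2, Ifit3, Oas1a, Ifi27 and Ifi44, replicate 4 those of Irf9, Oas1a and Parp9, replicate 5 those of Ifit2, Oas1a and Ifi44, replicate 2 those of Irf7 and Irf9, and replicate 1 those of Parp9 and Ifi44. The highest adjusted p in edgeR that these fits gave was 0.0506 for Irf7, 0.0637 for Irf9, 0.0569 for Ifit2, 0.0545 for Ifit3, 0.0633 for Parp9, 0.055 for Dtx3l and 0.0788 for Ifi44. In HPBCD-treated mice the calls lost were those of Mx2 and Trim30a, and 36 of 38 held in every setting that gave them an adjusted p.

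**Figure D2:**
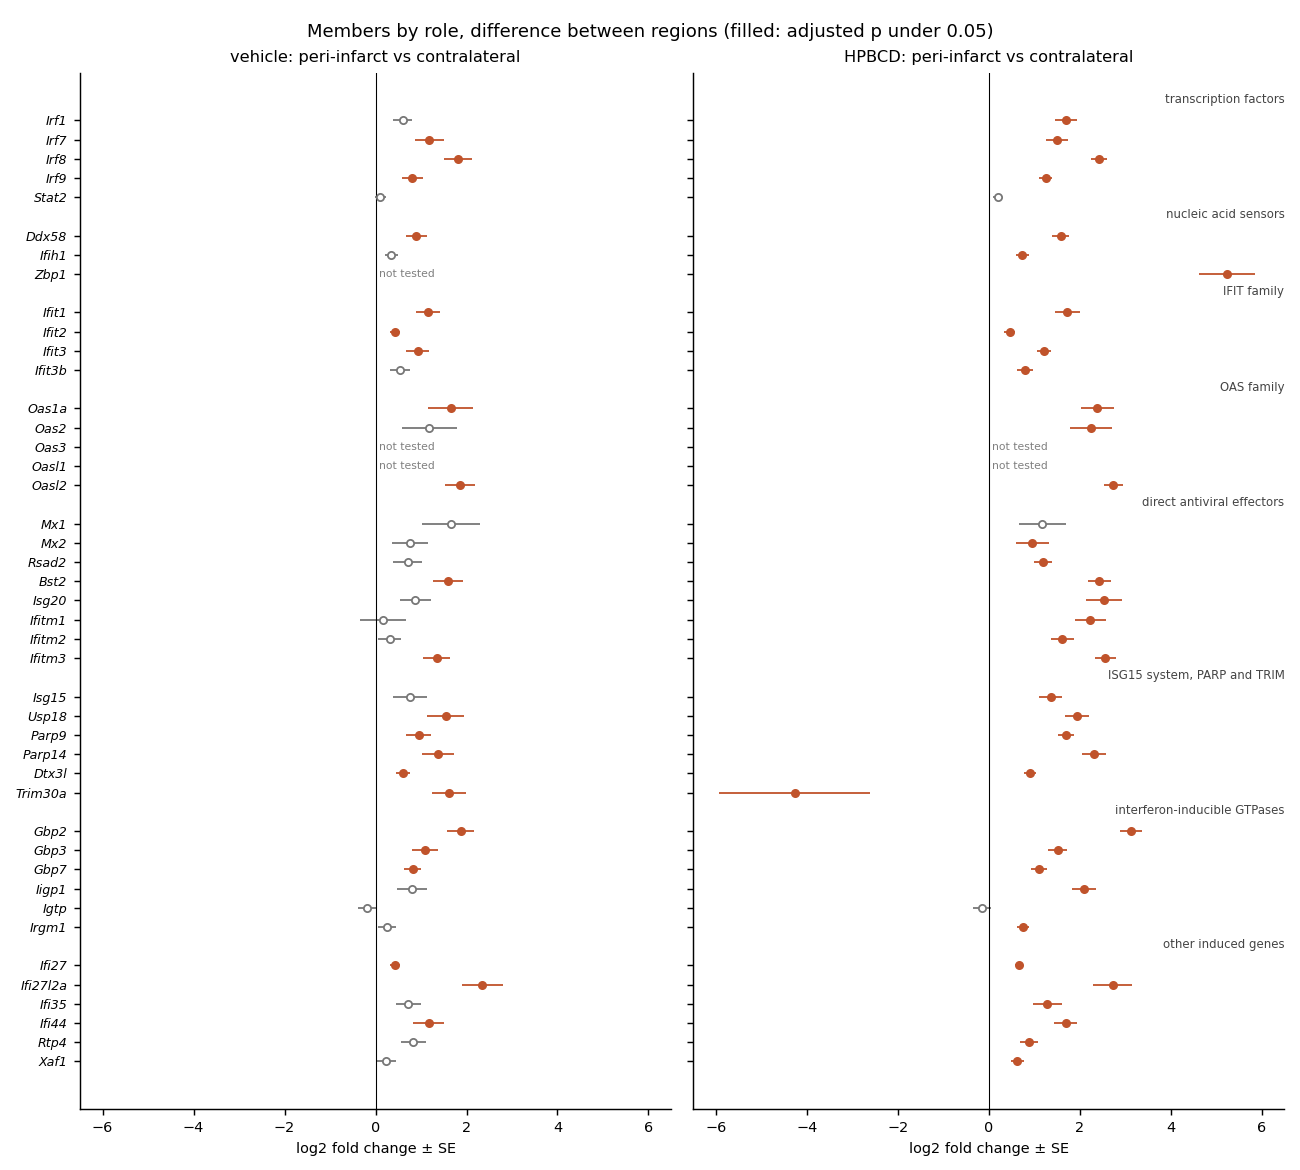
Log2 fold change of peri-infarct against contralateral tissue, with SE, for the 43 members by role, in vehicle (left) and HPBCD (right); filled points have an edgeR adjusted p under 0.05. In both panels most points lie right of 0, with Trim30a in HPBCD at -4.27 and Igtp near 0.

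The members differed widely in level. As CPM per kilobase of exon, vehicle contralateral means ran from 0.00489 for Oas3 to 16.8 for Ifitm2, with Ifi27 at 15.3 and Ifitm3 at 9.03. In HPBCD peri-infarct tissue Ifitm3 was highest at 48.7 per kilobase, followed by Ifitm2 at 45.3, Ifi27 at 24.8, Bst2 at 17.3, Ifit3 at 12.7 and Gbp2 at 12.2. Each of the leading pair varied over 2-fold among these 5 libraries, from 18.95 to 47.6 CPM for Ifitm3 and from 16.4 to 46.6 CPM for Ifitm2, so their order is not resolved. Of the windows of Ifitm2, 48.5% are shared with another annotated gene, among them Gm45717, and its level is uncertain for that reason.

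Libraries of the same group did not carry these genes to the same extent. Each library was given the median, over the 42 members tested in the interaction, of its ratio to the vehicle contralateral mean. This was 0.761 to 1.23 in vehicle contralateral and 0.871 to 1.1 in HPBCD contralateral libraries. In vehicle peri-infarct tissue it was 1.478, 1.445, 3.108, 1.962 and 1.506, and in HPBCD peri-infarct tissue 2.305, 2.186, 3.013, 4.303 and 2.408. Vehicle peri-infarct replicate 3 was the highest of its group for 35 of 42 members, where it was so for 28% of all genes tested, and HPBCD peri-infarct replicate 4 was so for 37 of 42, against 30.5% of genes. The remaining vehicle peri-infarct libraries lay under every HPBCD peri-infarct library, and replicate 3 lay among the HPBCD libraries.

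**Figure D3:**
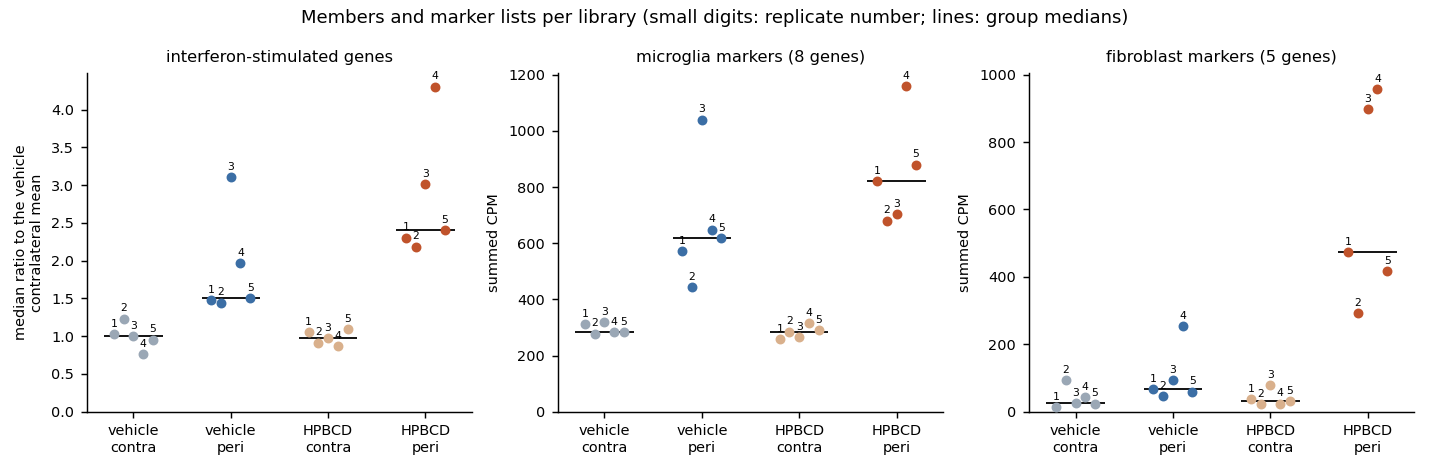
Median ratio of the members to the vehicle contralateral mean (left), and summed CPM of 8 microglia markers (centre) and of 5 fibroblast markers (right), per library; lines are group medians and digits are replicate numbers. Vehicle peri-infarct replicate 3 and HPBCD peri-infarct replicate 4 are the highest of their groups in the left and centre panels.

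Several marker lists rose with the members and others did not. Of all genes, 20.2% and 54.6% were called between regions in vehicle and HPBCD, and 21.4% between treatments in peri-infarct tissue. Endothelial markers summed to 167 to 318 CPM in vehicle contralateral and 163 to 274 CPM in vehicle peri-infarct libraries, with 0 of 6 called. In HPBCD they summed to 212 to 266 CPM contralaterally and 189 to 291 CPM beside the infarct, with 1 called higher and 1 lower. The 8 microglia markers, among them P2ry12, Tmem119 and Cx3cr1, summed to 278 to 319 CPM in vehicle contralateral, 443 to 1040 CPM in vehicle peri-infarct, 258 to 316 CPM in HPBCD contralateral and 680 to 1160 CPM in HPBCD peri-infarct libraries. All 8 were called higher beside the infarct in both treatments, and 0 of 8 differed between treatments in peri-infarct tissue. The highest sums were those of vehicle replicate 3 (1040 CPM) and HPBCD replicate 4 (1160 CPM). Astrocyte markers also peaked in these 2 libraries (8800 and 10100 CPM), with 4 of 6 called higher beside the infarct in each treatment. Oligodendrocyte markers summed to 5770 to 13900 CPM in vehicle and 12000 to 18500 CPM in HPBCD peri-infarct libraries, with 0 of 5 called beside the infarct in vehicle, 5 of 5 higher in HPBCD and 2 of 5 in the interaction. Markers of macrophages and monocytes summed to 6.7 to 17.4 CPM in vehicle and 21.9 to 49.3 CPM in HPBCD peri-infarct libraries, with 5 of 7 called higher in the libraries labelled HPBCD, a direction that rests on those labels. In contralateral libraries they summed to 3.3 to 16.8 CPM in vehicle and 4.03 to 14 CPM in HPBCD. Fibroblast markers summed to 45.1 to 255 CPM in vehicle and 292 to 957 CPM in HPBCD peri-infarct libraries, with 5 of 5 called higher in HPBCD. Ependymal markers summed to 21.7 to 52.5 and 78.6 to 154 CPM in these peri-infarct groups, with 3 of 4 called higher in HPBCD and 4 of 4 in the interaction. Markers of B cells and plasma cells summed to 4.5 to 10.4 and 9.25 to 16.8 CPM there, with 2 of 4 called higher, and 2 of 4 choroid plexus markers were called higher. Choroid plexus markers summed to 4.12 to 60.1 CPM in vehicle and 18.002 to 622 CPM in HPBCD peri-infarct libraries, with replicate 3 of HPBCD highest in both regions (622 and 606 CPM, against at most 182 and 6.15 CPM in the others of its group). T cell markers were at 10.9 to 46.4 CPM in vehicle and 13.8 to 32.2 CPM in HPBCD peri-infarct libraries, with 0 of 5 called. Neutrophil markers summed to 0.051 to 3.34 CPM in vehicle and 1.68 to 21.7 CPM in HPBCD peri-infarct libraries, and S100a9 was called higher in HPBCD (log2 fold change 2.52, adjusted p = 0.0475 in edgeR), while Ly6g never exceeded the floor, nor did Gzma of the NK cell list. Neuron markers went the other way, with 8120 to 9780 CPM in vehicle and 9740 to 10500 CPM in HPBCD contralateral libraries, 4910 to 6940 CPM in vehicle and 2420 to 5100 CPM in HPBCD peri-infarct libraries and 4 of 7 called lower. The part of these cells in the member values was not tested.

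The second comparison set libraries labelled HPBCD against libraries labelled vehicle within each region, to show how the members stood after treatment. In peri-infarct tissue 42 members were tested and 8 were called higher in HPBCD and 0 lower. Of the 16224 genes tested 12.4% were called higher, 9% lower and 21.4% in either direction, so the share of members called was near that of all genes. The median log2 fold change was 0.50 for members and 0.01 for all genes, 40 of the 42 were positive, and 18 had an unadjusted p under 0.05, as had 6357 of the 16224 genes, a like share. The directions are as labelled and carry the doubt about the labels given above. Groups were free of overlap for 2 members, Gbp2 and Ifi27, against 7.46% of genes. These vehicle peri-infarct libraries also enter the region comparison in vehicle, so the lists of both comparisons are not independent.

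Gbp2 had the smallest p of the members. Its values, given above, were 6.36 to 16.8 CPM in vehicle and 21.4 to 52.3 CPM in HPBCD peri-infarct libraries, a log2 fold change of 1.38 (SE 0.29, adjusted p = 0.0153 in edgeR), and the call held in all 18 alternative settings. Iigp1, an immunity-related GTPase, was at 2.55, 4.2, 8.19, 5.51 and 3.69 CPM in the vehicle and 6.39, 8.82, 11.8, 17.99 and 7.94 CPM in the HPBCD peri-infarct libraries. Its contralateral libraries were at 2.42, 4.25, 3.2, 1.74 and 2.02 CPM in vehicle and 2.84, 2.07, 2.62, 2.36 and 2.37 CPM in HPBCD. The peri-infarct groups overlapped through vehicle replicate 3, and the log2 fold change was 1.13 (SE 0.33, adjusted p = 0.0369 in edgeR).

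The Ifitm genes, which encode small membrane proteins that stop enveloped viruses from fusing, are represented by 3 members on chromosome 7, all called. Ifitm1 (ENSMUSG00000025491, chromosome 7, 140967221 to 140969825, plus strand, GRCm38) was at 0.612, 0.513, 0.734, 2.83 and 0.718 CPM in the vehicle and 5.09, 1.98, 5.67, 6.9 and 3.49 CPM in the HPBCD peri-infarct libraries. Its contralateral libraries were at 0.605, 1.63, 0.592, 1.14 and 0.836 CPM in vehicle and 1.15, 0.655, 0.62, 1.22 and 1.24 CPM in HPBCD. In vehicle 4 of the 5 peri-infarct libraries lay within the contralateral range or under it, and replicate 4 exceeded the lowest HPBCD peri-infarct library. The difference between treatments beside the infarct was 2.07 on the log2 scale (SE 0.49, adjusted p = 0.0193 in edgeR).
Ifitm2 (ENSMUSG00000060591, chromosome 7, 140954837 to 140955987, minus strand, GRCm38) was at 10.9, 7.48, 14.7, 21.9 and 13.6 CPM in the vehicle and 27.2, 16.4, 32.9, 46.6 and 25.4 CPM in the HPBCD peri-infarct libraries. In contralateral tissue it was at 8.03, 14.4, 12.1, 8.86 and 11.5 CPM in vehicle and 11.98, 5.85, 11.9, 8.44 and 9.75 CPM in HPBCD. The peri-infarct groups met only where vehicle replicate 4 exceeded HPBCD replicate 2, and the log2 fold change was 1.10 (SE 0.30, adjusted p = 0.0278 in edgeR).
Ifitm3 (ENSMUSG00000025492, chromosome 7, 141009586 to 141010770, minus strand, GRCm38) was at 13.5, 11.3, 22.03, 18.9 and 12.6 CPM in the vehicle and 28.6, 18.95, 36.1, 47.6 and 33.7 CPM in the HPBCD peri-infarct libraries. In contralateral tissue it was at 6.1, 10.1, 7.05, 3.59 and 3.74 CPM in vehicle and 6.69, 3.58, 5.24, 5.33 and 6.93 CPM in HPBCD. Vehicle replicate 3 exceeded HPBCD replicate 2, the one overlap. Unlike Ifitm1 and Ifitm2 it had already risen in vehicle-treated mice (1.34, SE 0.29, adjusted p = 0.00966 in edgeR), and beside the infarct it was a further 1.07 higher in HPBCD on the log2 scale (SE 0.24, adjusted p = 0.0176 in edgeR). The calls of Ifitm1 and Ifitm3 were lost in 1 of 18 alternative settings each, without HPBCD peri-infarct replicate 3 (adjusted p = 0.0524 and 0.0502), and that of Ifitm2 in 5, with adjusted p up to 0.0675.

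Irf1, a transcription factor induced above all by interferon-γ, was at 7.29, 6.97, 14.4, 11.6 and 9.05 CPM in the vehicle and 14.8, 12.3, 17.97, 30.2 and 14.1 CPM in the HPBCD peri-infarct libraries. Its contralateral libraries were at 5.61, 7.74, 6.7, 6.85 and 5.36 CPM in vehicle and 5.39, 4.79, 6.76, 3.5 and 6.82 CPM in HPBCD. Vehicle replicate 3 overlapped the lower HPBCD libraries, and the log2 fold change was 0.85 (SE 0.27, adjusted p = 0.0443 in edgeR). Exons of Irf1 overlap Gm17334 over 135 bp on the other strand. Ifih1, which encodes the RNA sensor MDA5, was at 8.16, 10.9, 14.01, 12.5 and 11.2 CPM in the vehicle and 13.3, 14.6, 19.5, 23.2 and 16.8 CPM in the HPBCD peri-infarct libraries. Its contralateral libraries were at 7.42, 9.75, 8.06, 9.57 and 9.4 CPM in vehicle and 10.7, 9.83, 10.7, 10.04 and 11.2 CPM in HPBCD, where every HPBCD library was above every vehicle library. Beside the infarct the groups overlapped narrowly, with a log2 fold change of 0.61 (SE 0.17, adjusted p = 0.0308 in edgeR). Isg20, which encodes an RNA exonuclease, was at 0.867, 0.615, 0.734, 1.6 and 0.766 CPM in the vehicle and 1.51, 0.862, 3.58, 3.26 and 2.11 CPM in the HPBCD peri-infarct libraries. In contralateral tissue it was at 0.715, 0.436, 0.296, 0.435 and 0.59 CPM in vehicle and 0.349, 0.454, 0.345, 0.304 and 0.451 CPM in HPBCD. HPBCD replicates 1 and 2 lay within the vehicle range, and the log2 fold change was 1.28 (SE 0.40, adjusted p = 0.0422 in edgeR). The calls of Irf1 and Isg20 were lost in 7 of 18 alternative settings and those of Ifih1 and Iigp1 in 6, each a fit without 1 library, with adjusted p up to 0.108.

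The 34 members tested and not called in this comparison had log2 differences from -0.21 to 1.12. Irf7 and Ifit3b were nearly level, at 0.07 (SE 0.32) and 0.05 (SE 0.22), as were Rsad2 at 0.01 (SE 0.23) and Mx1 at 0.04 (SE 0.52). Mx2 and Ifi27l2a were negative, at -0.06 (SE 0.37) and -0.21 (SE 0.32). Parp9, Ddx58 and Ifit1 were at 0.75, 0.67 and 0.77 with edgeR adjusted p-values of 0.0562, 0.0796 and 0.0757. Ifi27 was at 30.2, 30.8, 32.3, 25.2 and 32.1 CPM in the vehicle and 32.5, 35.4, 37.3, 40.1 and 36.8 CPM in the HPBCD peri-infarct libraries, narrowly without overlap, with a log2 fold change of 0.27 (SE 0.09, adjusted p = 0.0503 in edgeR).

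The count of 8 depended on single libraries. With vehicle peri-infarct replicate 3 omitted it was 26, and with HPBCD peri-infarct replicate 3 omitted it was 1. It was 3 on leaving out any of vehicle peri-infarct replicates 1, 2 and 5 or HPBCD peri-infarct replicate 4. The median log2 fold change stayed between 0.35 and 0.79 in these fits. Other tools called more members, 15 with DESeq2 and 23 with limma voom, and the fit of all 4 groups called 16. The shares of all genes called in these settings are not given here, so the counts are not set against them.

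**Figure D4:**
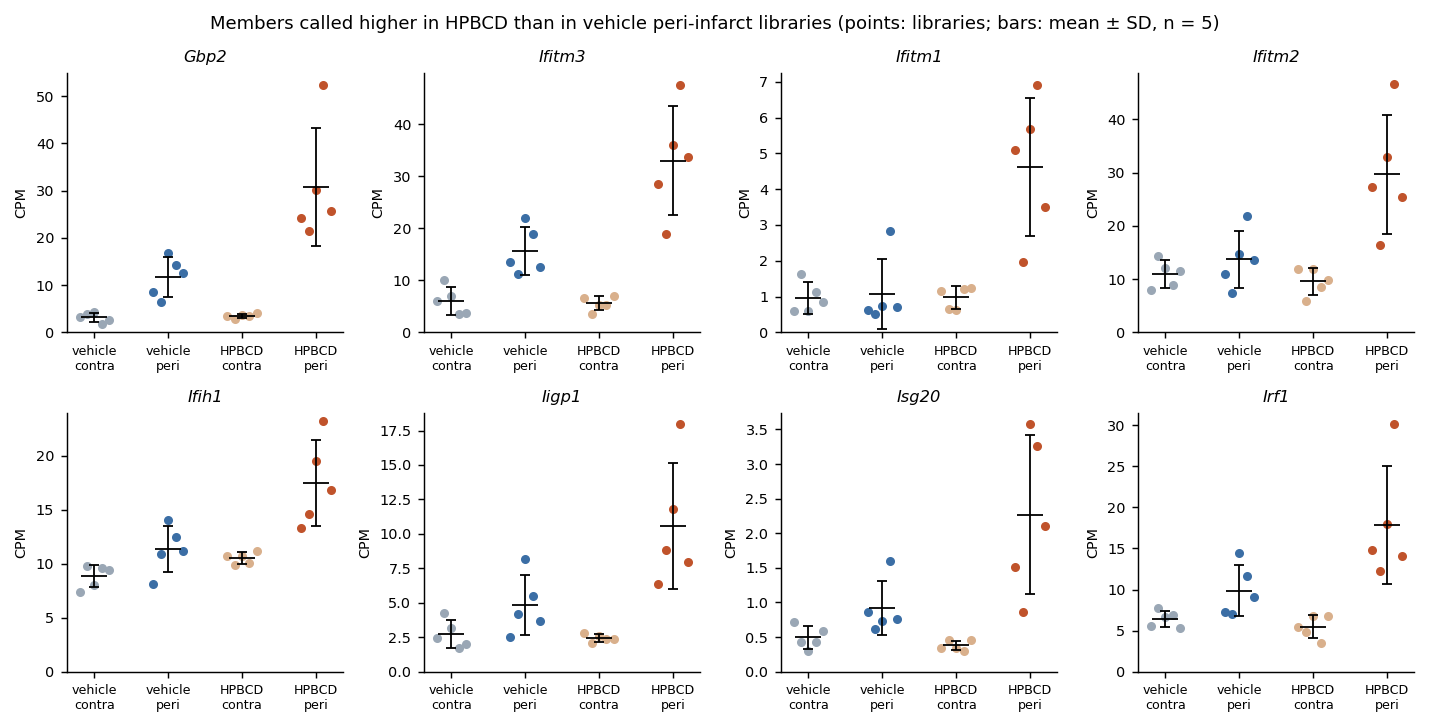
CPM in each of the 20 libraries for the 8 members called higher in HPBCD than in vehicle peri-infarct libraries, in order of p; bars are the mean and SD of 5 libraries. HPBCD peri-infarct libraries reach highest in each panel.

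In contralateral tissue 0 of 35 members tested were called with edgeR, as were 0% of the 15469 genes. DESeq2 and limma voom also called 0 members. An unadjusted p under 0.05 was found for 1224 of the 15469 genes and for 4 members, Ifit2 (log2 fold change 0.29), Gbp7 (0.35), Igtp (0.45) and Trim30a (6.77), with HPBCD contralateral replicate 4 again the high library. With any 1 library omitted the median over members lay between -0.07 and 0.07.

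**Figure D5:**
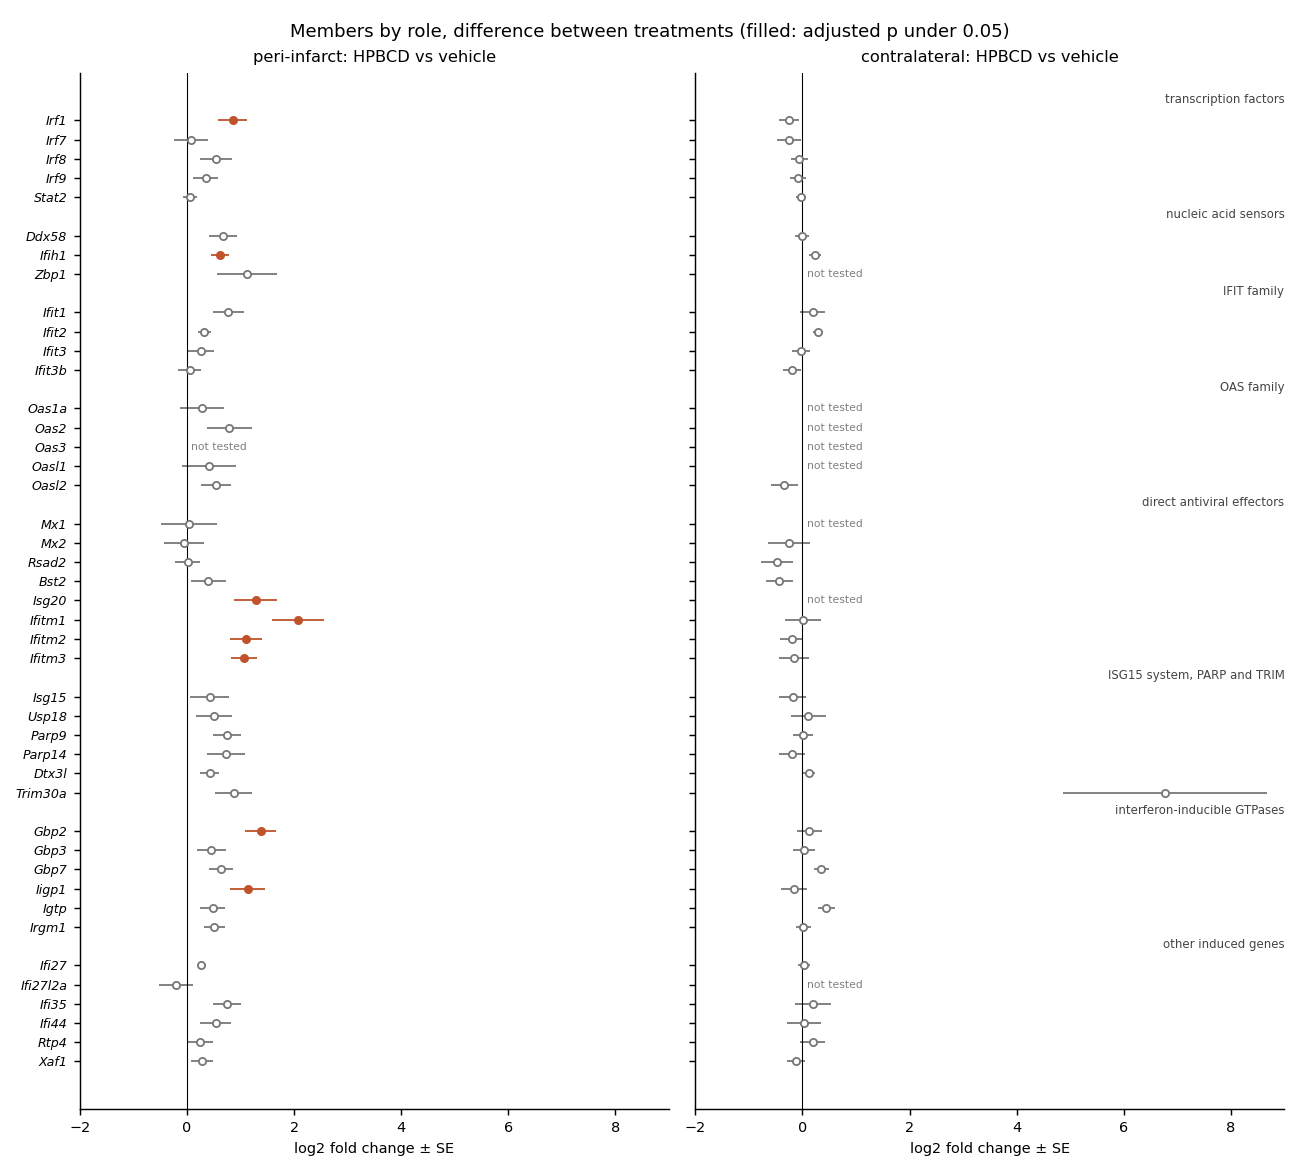
Log2 fold change of HPBCD against vehicle, with SE, for the 43 members by role, in peri-infarct (left) and contralateral tissue (right); filled points have an edgeR adjusted p under 0.05. Most points on the left lie right of 0, and those on the right lie around 0 apart from Trim30a at 6.77.

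Whether the difference between regions itself differed between treatments was tested as an interaction over all 20 libraries. Of 42 members 2 were called, both with a more positive difference in HPBCD-treated mice, where 5.03% of 16758 genes were called in that direction, 4.38% in the other and 9.41% in either, so the count of members was no larger than the share of all genes. Ifitm1 had a region difference of 0.16 in vehicle and 2.23 in HPBCD, an interaction of 2.06 (SE 0.63, adjusted p = 0.0464 in edgeR). Ifitm2 had 0.31 and 1.62, an interaction of 1.31 (SE 0.39, adjusted p = 0.0417 in edgeR). Just short of the threshold were Irf1 at 1.09 (adjusted p = 0.0504 in edgeR), Gbp2 at 1.25 (adjusted p = 0.0508 in edgeR), Ifitm3 at 1.21 (adjusted p = 0.0559 in edgeR) and Isg20 at 1.65 (adjusted p = 0.0563 in edgeR). The interaction was positive for 40 of the 42 members, with a median of 0.48, and 12 had an unadjusted p under 0.05, as had 4840 of the 16758 genes, a like share. Omitting 1 library at a time gave 0 members in 9 of 20 fits (without vehicle peri-infarct replicates 1, 2 or 5, vehicle contralateral replicates 2 or 3, HPBCD peri-infarct replicates 3 or 4, or HPBCD contralateral replicates 2 or 4) and 13 without vehicle peri-infarct replicate 3, so the count of 2 depended on single libraries. For Irf8, Oasl2 and Bst2 the interaction was 0.61, 0.88 and 0.83 and was not called (edgeR adjusted p from 0.154 to 0.281).

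The genes upstream of these members were then examined, in a list of 34 genes of the interferon pathway. Of 9 interferon genes, Ifna1, Ifna2, Ifna4, Ifnb1, Ifnk, Ifnl2 and Ifnl3 had 0 counts in all 20 libraries, Ifng had at most 4 and Ifne at most 3. At this depth the floor allows up to 0.228 CPM in the shallowest library, so low transcription was not detectable. Of 5 receptor genes tested, Ifnar2, Ifngr1 and Il10rb rose beside the infarct in vehicle-treated mice and 4 of 5 in HPBCD-treated mice. Ifngr1, the ligand-binding chain for interferon-γ, was singled out after its values were seen. It had log2 fold changes of 0.78 and 1.64, and was 0.67 higher in HPBCD peri-infarct libraries (adjusted p = 0.0366 in edgeR). Of 10 sensors and adaptors, 6 rose in vehicle and 9 in HPBCD. The smallest p-values in vehicle were those of Tlr9, a receptor for unmethylated DNA (log2 fold change 1.69, adjusted p = 0.00223 in edgeR), Tmem173, which encodes STING (1.06, adjusted p = 0.00348 in edgeR), and Tlr7, a receptor for single-stranded RNA (1.93, adjusted p = 0.00489 in edgeR). Over the 24 genes tested in the pathway list, 12, 20, 8, 0 and 2 were called higher in the vehicle and HPBCD region comparisons, the peri-infarct and contralateral treatment comparisons and the interaction, against 10.5%, 30.3%, 12.4%, 0% and 5.03% of all genes tested, and 0 were called lower. In contralateral tissue 1 pathway gene had an unadjusted p under 0.05, where 1224 of 15469 genes had, and DESeq2 and limma voom called 0 of both lists.

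A list of 50 further interferon-stimulated genes, outside the members, was counted in the same way. Called higher were 18 of 39 tested in vehicle and 37 of 42 in HPBCD between regions, 10 of 44 between treatments in peri-infarct tissue, 0 of 33 in contralateral tissue (1 at an unadjusted p under 0.05) and 2 of 44 in the interaction. The shares of all genes tested were again 10.5%, 30.3%, 12.4%, 0% and 5.03%, and the interaction count was near its share. Among the smallest p-values in vehicle was that of Ifi204, a DNA sensor of the AIM2-like family. It was at 0.178 to 0.825 CPM in vehicle contralateral and 2.36 to 11.1 CPM in vehicle peri-infarct libraries. It passed the low-count filter through the latter, so no fold or p is given. The others were Lgals3bp, a secreted binding protein of galectins (log2 fold change 2.20, adjusted p = 0.00275 in edgeR), and Cd274, which encodes PD-L1 (1.15, adjusted p = 0.00373 in edgeR). Herc6, the mouse ligase that attaches ISG15, was called lower, in HPBCD-treated mice (-0.39, adjusted p = 0.00952 in edgeR).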

How the data were processed

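Bulk RNA sequencing of 20 libraries was analysed from whole-number gene counts deposited by the authors, 1 table per library, made per the submitters' processing notes with bcl2fastq 2.19, Trimmomatic 0.32, STAR 2.5.2b and HTSeq on GRCm38. DESeq2 is also named there. The strand option of the counting is not given in the sources used here. The 5 HTSeq summary lines were left out of library sizes, and the share of read pairs without a feature was 4.39% to 9.5%. Genes were named and located with GENCODE M21, in which 98.16% of identifiers were found.

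Counts were compared in R 4.3.3 with edgeR 4.0.16 (filterByExpr, TMM factors, quasi-likelihood F test, Benjamini-Hochberg adjustment over all genes tested, threshold 0.05), each pair of groups in its own fit and the interaction over all groups. Alternatives were DESeq2 1.42.0, limma 3.58.1 voom with sample quality weights, RLE and upper quartile factors, other low-count filters, all 4 groups in 1 fit, a replicate block and leaving out each library. On simulated counts with 200 genes changed 2-fold, 74% were recovered in the vehicle region comparison, 72% between treatments in peri-infarct tissue and 53.5% in the interaction, and 2.6%, 6.5% and 2.7% of the calls were false. The simulation drew each count on its own, without shifts of whole libraries, so these shares do not measure the error of the calls reported here. CPM were computed with TMM factors.

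The members and the gene lists were chosen with earlier results of these data known. Values in every library are given for the member of each role with the smallest p in the vehicle region comparison and for those called between treatments, in the interaction or in opposite directions. Of the other lists, the 6 smallest p-values and genes called lower are named. The deposited names carry an animal identifier, so regions pair within a treatment (mean correlation of deviations 0.088 over 10 pairs, 4 above 0.1), while between treatments a replicate number is only a name. The main region fits used no block, so their p-values measure the spread between libraries and not the spread within animals.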

Additional observations from a re-analysis of the deposited data

Results flagged for a closer look

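In 13 of the 167 groups of 5 libraries tested, 1 library lay farther from the rest than Dixon's 95% limit allows, and chance alone marks about 1 in 20 such groups. Vehicle peri-infarct replicate 3 was the high library for 7 genes. It was at 10.85 CPM for Irf7 (3.62 to 4.87 in the other 4), 24.23 CPM for Irf9 (9.99 to 13.99) and 9.094 CPM for Ifit1 (4.6 to 4.87). It was at 32.31 CPM for Ifit3 (14.02 to 16.5), 14.86 CPM for Ifit3b (6.83 to 8.01), 23.16 CPM for Bst2 (7.18 to 11.5) and 5.366 CPM for Rtp4 (2.58 to 3.25). HPBCD peri-infarct replicate 4 was the high library for 3 genes, at 2.76 CPM for Oas2 (1.0 to 1.39 in the other 4), 1.435 CPM for Oasl1 (0.421 to 0.678) and 52.32 CPM for Gbp2 (21.4 to 30.03). Vehicle peri-infarct replicate 4 was high for Isg20, at 1.602 CPM (0.615 to 0.867), and for Ifitm1, at 2.826 CPM (0.513 to 0.734). HPBCD contralateral replicate 4 was at 1194 CPM for Trim30a (1.93 to 3.89).

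The difference between regions differed between treatments by the interaction test for Ifitm1, by a log2 value of 2.06 (adjusted p = 0.0464 in edgeR), and for Ifitm2, by 1.31 (adjusted p = 0.0417 in edgeR). The Ifitm1 call held in 9 of 26 alternative settings and the Ifitm2 call in 16 of 27.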

How the results depend on the processing

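Counts of members called in the region comparisons stayed within 1.5 times under the settings tried. Leaving out 1 library gave 16 to 24 in vehicle, with a median log2 fold change of 0.63 to 1.02, and 36 to 38 in HPBCD, with 1.36 to 1.61. The counts that moved were those between treatments and in the interaction, and they are given without the shares of all genes called in the same settings. In peri-infarct tissue the 8 members became 15 with DESeq2, 23 with limma voom and 16 with all 4 groups in 1 fit, and 1 to 26 without 1 library (medians 0.35 to 0.79). The 18 genes called from the pathway and further lists became 36 with limma voom, 32 with all 4 groups in 1 fit and 1 to 43 without 1 library. In the interaction the 2 members became 8 with DESeq2, 12 with limma voom, 4 with RLE factors and 1 with no low-count filter, and 0 to 13 without 1 library (medians 0.37 to 0.71). The 4 pathway and further genes became 7, 14 and 2 with DESeq2, limma voom and no low-count filter, and 0 to 17 without 1 library. In the region comparisons those lists gave 20 to 34 and 58 to 62 without 1 library. In contralateral tissue all these fits gave 0 for both, with medians of members from -0.07 to 0.07.

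With the replicate number as a block, members called were 20 and 36 in the vehicle and HPBCD region comparisons and 2 in the interaction. In peri-infarct tissue, where the number pairs no animals, the block gave 21 members and 35 pathway and further genes. The block also ended the vehicle calls of Oas1a and Parp14. Trim30a in HPBCD-treated mice changed sign, to 0.17 with limma voom, 0.99 with the block and 2.18 without HPBCD contralateral replicate 4, while leaving out any other library gave -4.59 to -4.17. The cause of these shifts was not tested. Single-gene results numbered 1152 that kept side and direction, 109 no longer past the threshold and 3 of changed sign. Members with few counts, such as Oas3, Oasl1 and Mx1, are limited by depth.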
